A study of Mus musculus with 12 samples.

Results

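The replication-dependent histone genes of the mouse were examined in RNA-seq data from primary mouse embryonic fibroblasts (MEFs). Members were all protein-coding genes of GENCODE release M21 whose symbol starts with Hist1h, Hist2h, Hist3h or Hist4h, matched to the count files by Ensembl identifier. The release holds 67 such genes, of which 54 have an identifier among the 37991 in the files and 41 had counts in at least 3 of the 12 samples. A filter on low counts (at least 0.266 CPM, counts per 1000000 of the library, in 3 samples) left 17 of them among the 15327 genes tested. Of these 17, 11 would have passed it in the samples of either genotype alone, while Hist1h3b, Hist1h2ab, Hist1h4h, Hist1h2ad, Hist1h1e and Hist1h4n passed only through wild-type samples. All cells were FVB strain MEFs isolated from embryos at day 13.5 and used at passage 3. They were wild-type or homozygous for E2f1 3KR, a knock-in allele in every cell of the animal that replaces the acetylated lysines of the transcription factor E2F1 with arginine. Each genotype was left untreated or was treated with the radiomimetic drug neocarzinostatin (NCS), which breaks DNA, at 250 ng/ml for 3 h, giving 4 groups of 3 samples. The labels number the samples of a group but do not say whether they came from separate embryos or cultures, so the p-values measure the spread between these samples.

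Replication-dependent histone genes encode the linker histone H1 and the core histones H2A, H2B, H3 and H4, which are made in bulk in S phase to package newly copied DNA. They lie in clusters, mostly lack introns, and their mRNAs normally end not in a poly(A) tail but in a short conserved stem-loop that is bound by the protein SLBP. When cells leave S phase or replication is blocked, these mRNAs are rapidly degraded. A kit that selects mRNA by its poly(A) tail therefore recovers mainly the polyadenylated forms that some histone genes also make, and the levels below need not follow the total amount of histone mRNA.

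The stem-loops of the members on which the results turn are shown because they mark where the non-polyadenylated form of each mRNA ends. The search was for a perfect 6-base stem that begins with GG, ends with CC and has a T-A pair next to the loop. The 4-base loop had to have the form TNTN, where N is any base. Only sequence after the stop codon of GENCODE M21 coding transcripts was searched. Capitals mark stem and loop, and 5 bases are shown on each side.
Hist1h1c: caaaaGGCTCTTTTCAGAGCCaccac
Hist1h4i: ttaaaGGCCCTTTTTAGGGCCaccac
Hist1h3b: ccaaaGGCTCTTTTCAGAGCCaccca
Hist1h2ab: acaaaGGCTCTTTTCAGAGCCaccca
Hist1h2ac: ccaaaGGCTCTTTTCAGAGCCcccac
Hist1h2bg: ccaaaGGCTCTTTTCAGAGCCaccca
Hist1h1c, Hist1h3b, Hist1h2ab, Hist1h2ac and Hist1h2bg share the same 16 bases, and the H4 gene Hist1h4i has another stem with the same architecture. A stem-loop of this kind was found in 46 of the 67 members (68.66%) and in 15 of 22460 other genes (0.0668%), among them H2afx, which encodes the variant H2A.X. A missing match need not mean a missing stem-loop. Several members without a match, such as Hist1h1b, Hist1h2ai and Hist1h4k, have 0 annotated bases after the stop codon, so none could be found there. The second most highly counted member, the H2B gene Hist1h2bc, has 2 exons and 742 bases after its stop codon and holds no match, and neither does the H2B gene Hist2h2be.

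Reads on the members were few. They summed to 2221 to 3620 counts per sample, or 0.00665 to 0.00878% of the 33203757 to 45279321 counts of a sample. Levels are given as CPM, the counts of a gene per 1000000 counts of its library with the TMM scaling of edgeR, and on this scale 3 counts, taken as the floor of detection, correspond to 0.0653 to 0.0916 CPM. Such limits cover counting error only. H1 genes held 64.3% of all member reads, H2B genes 24.1%, H4 genes 5.34%, H2A genes 4.42% and H3 genes 1.79%. Wild-type replicate 3 stood apart in both treatments: compared with the other replicates of its group it had 7.57 to 9.37 in chi-square divided by the number of genes, while every other replicate pair had 2.03 to 2.34. Values that rest on it are also given without it. Fibroblast markers were high in all samples (summed level 57020 to 62990 CPM, 10 of 10 detected). The female transcript Xist was at 799.9 to 933.5 CPM in the 3KR samples and 0.846 to 1.64 CPM in the wild-type samples, so sex and genotype cannot be told apart. The treatment check was clear, since 9 of 10 p53 target genes rose after NCS in each genotype (edgeR), beside 14.3% and 15.8% of all tested genes. Cdkn1a, the p53 target that encodes the cell cycle inhibitor p21, went from 447.6 to 473.1 CPM without treatment to 1023 to 1047 CPM after NCS in wild-type MEFs, and from 254.6 to 258.4 CPM to 641.8 to 658.3 CPM in 3KR MEFs.

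Levels differed widely among the members. Hist1h1c, which encodes the linker histone H1.2 and lies on chromosome 13 (GRCm38, 23738808 to 23740367, 1 exon), had 20923 counts over the 12 samples and a mean of 45.3 CPM. Hist1h2bc (chromosome 13, 23684199 to 23692908) followed with 7185 counts and 15.5 CPM, and the H4 gene Hist1h4i (chromosome 13, 22040636 to 22041362) with 1061 counts and 2.30 CPM. Hist1h1c alone held 61.8% of the member reads and Hist1h2bc 21.2%. Per kilobase of annotated exon, a scale on which genes can be compared with each other, the levels were 29.0 CPM per kb for Hist1h1c, 13.4 for Hist1h2bc and 3.17 for Hist1h4i, so the order of the first 3 was the same. It was not the same further down. Hist1h1d, another H1 gene, ranked 5 of the members by CPM (1.31) and 21 per kilobase (0.176 CPM per kb), since its annotated transcript has 7425 bases, while the H2B gene Hist1h2bg ranked 10 by CPM (0.596) and 4 per kilobase (0.964 CPM per kb).

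**Figure D1:**
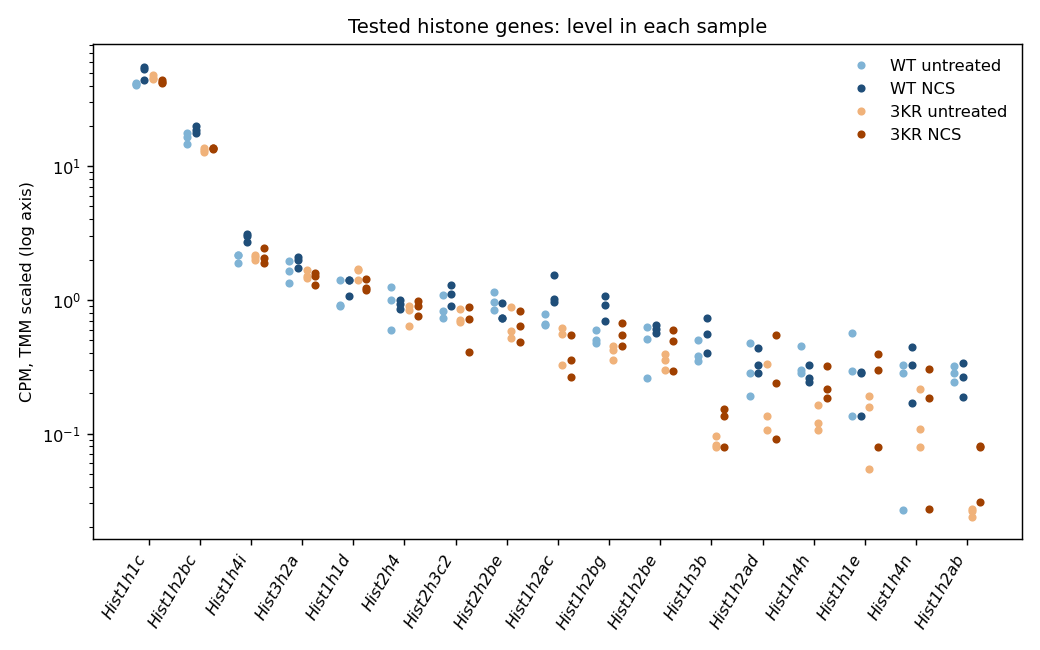
TMM-scaled CPM (log axis) of the 17 tested histone genes in each of the 12 samples, ordered by mean level, with 3 points per group. Hist1h1c at a mean of 45.3 CPM and Hist1h2bc at 15.5 CPM lie above all others, and the 3KR samples of Hist1h3b and Hist1h2ab lie below the wild-type samples.

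The members with many counts were mostly those with an annotated transcript that runs well past the stop codon. With at least 150 bases after the stop codon taken as a long form, a limit set after the values had been seen, 24 of the 54 members had one. They held 97.0% of the member reads, 12 of them were tested, and their median was 99 counts over the 12 samples. Most of this share was Hist1h1c (61.8% of the member reads) and Hist1h2bc (21.2%). The other 30 held 2.96% of the reads, 5 of them were tested, and their median was 13.5 counts. Some of these 30, such as Hist1h1b and Hist1h2ai, have 0 annotated bases after the stop codon, so the annotation gives no 3′ length for them. These counts are not scaled by transcript length, and a long form itself lengthens the transcript. Per kilobase of annotated exon the contrast was less clear. Ranks 1 to 7 were members with a long form, but ranks 8 to 13 were all members without one. These were, in order, Hist1h4h, Hist1h2ad, Hist1h4n, Hist1h3b, Hist1h2ai and Hist1h2ab. Among tested members the H4 gene Hist2h4 has 1311 bases after the stop codon, the H2A genes Hist3h2a and Hist1h2ac have 1700 and 2058, and Hist1h1c has 880 with a poly(A) signal (AATAAA) in the last 50 bases. A long form was no guarantee of reads. Hist2h3c1 has 1213 bases after the stop codon and had 0 counts in all 12 samples. Just inside the limit lay Hist1h2bp with 150 bases and 13 counts and Hist1h4a with 154 bases and 19 counts, and just outside it Hist1h3c with 114 bases and 22 counts.

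**Figure D2:**
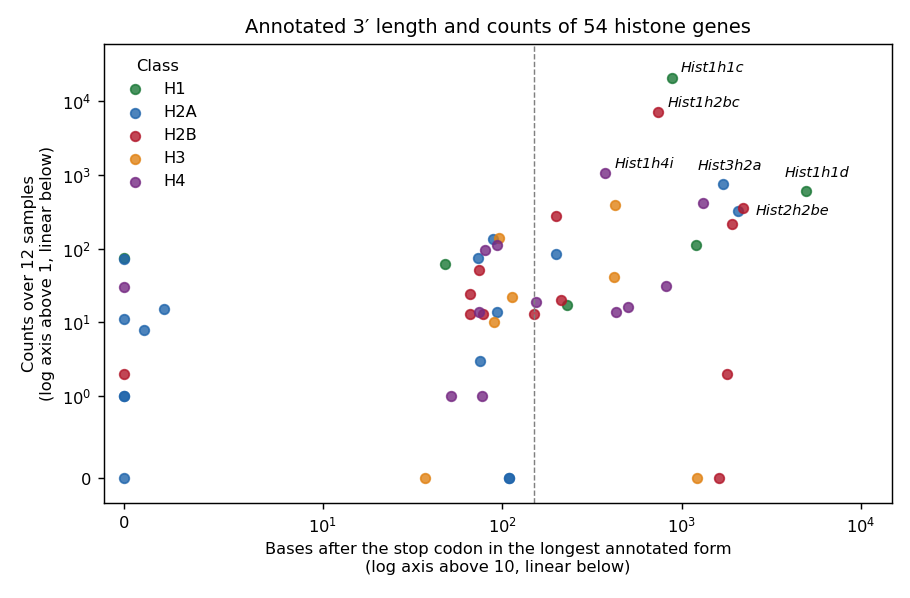
Bases after the stop codon in the longest annotated form (horizontal, log axis above 10) against counts summed over 12 samples (vertical, log axis above 1) for the 54 members in the files, coloured by histone class, with the limit of 150 bases dashed. Hist1h1c, Hist1h2bc and Hist1h4i, all to the right of the limit, have the highest counts.

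Near-identical coding sequences limit what can be counted for many of these genes, since a read that matches several genes may be dropped or split. The share of 50-base stretches of the longest transcript that occur in no other gene was 91.5% for Hist1h1c, 69.4% for Hist1h2bc and 71.1% for Hist1h4i. It was 39.6% for the H3 gene Hist1h3b and 42.0% for the H2A gene Hist1h2ab, and 14.4% for the H4 gene Hist1h4n, the lowest of the tested members. The median was 68.5% over the 17 tested members and 40.6% over the others. Of the 6 members with 0 counts in every sample, 4 have no stretch of their own (Hist2h2aa1, Hist2h2aa2, Hist2h3b and Hist2h3c1), so that their 0 cannot be read as absence. The other 2 were Hist1h2bq with 2.7% and Hist1h2aa, a testis histone gene, with 76.2%. A count of 0 allows up to 3 counts per sample.

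The remaining members were near the floor. The 24 members that had counts in at least 3 samples but were not tested held 2.05% of the member reads, and none had more than 15 counts in any sample. Summed over these 24 genes and the 3 samples of a group, the counts of wild-type MEFs were 178 without and 185 with NCS, and those of 3KR MEFs were 177 and 153. The H1 gene Hist1h1b had 15, 10 and 9 counts in untreated 3KR MEFs and 5, 7 and 5 in untreated wild-type MEFs, and was not tested. The testis histone gene Hist1h1t had 0 to 4 counts per sample, in 8 of 12 samples, and another, Hist1h2ba, had 2 counts in 1 sample. Just inside the limit of 3 samples lay Hist1h2af with 8 counts in 5 samples and Hist1h2bp with 13 counts in 5 samples, and just outside it Hist1h2ag with 3 counts in 2 samples and Hist1h2br with 2 counts in 2 samples. Hist1h4b, Hist1h4m, Hist1h2an and Hist2h2ab had 1 count each. The 13 members without an identifier in the files, among them Hist1h3d, Hist1h3g, Hist2h2bb and Hist4h4, were not analysed here.

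The next question was how the counts of histone genes in these poly(A)-selected libraries responded to NCS in wild-type MEFs. Hist1h1c, Hist1h4i, Hist1h2bc and Hist1h2bg were called higher, and no tested member was called lower (edgeR quasi-likelihood test, FDR under 0.05). These 4 of 17 members are 23.5%, beside 26.7% of all tested genes called in either direction and 14.3% called higher, so the share called was close to that of all genes. The median log2 fold change of the 17 members was 0.28, with 12 above 0, and that of all tested genes was 0.01. Without both wild-type replicate 3 libraries 2 of 18 members tested were called (11.1%), Hist1h1c and Hist1h4i, beside 32.7% of all genes then tested.

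Hist1h1c was at 42.2, 40.9 and 40.6 CPM in the untreated wild-type samples and at 55.7, 53.2 and 44.1 CPM after NCS. The groups did not overlap, and the lowest NCS value came from replicate 3. Its log2 fold change was 0.31 (standard error, SE, 0.06; edgeR FDR = 0.000426). It was called in all 13 alternative analyses, with edgeR or DESeq2 FDR of 1.11e-10 to 0.0121, the former without both replicate 3 libraries. The H4 gene Hist1h4i was at 1.87, 2.16 and 2.15 CPM without treatment and at 2.99, 3.09 and 2.72 CPM after NCS, again without overlap (log2 fold change 0.52, SE 0.14, edgeR FDR = 0.00921). Leaving out untreated replicate 1 took it just past the threshold (edgeR FDR = 0.0565). Hist1h2bc was at 17.9, 16.4 and 14.6 CPM without treatment and at 19.97, 18.7 and 17.6 CPM after NCS, so that the lowest treated sample lay below the highest untreated one (log2 fold change 0.20, SE 0.07, edgeR FDR = 0.0386). Each NCS sample was above the untreated sample of the same number, and with these taken as pairs the log2 fold change was 0.20 (edgeR FDR = 0.00929). It lost the call in 8 of 13 alternatives, with an FDR of 0.00929 to 0.190 over all of them. Among these were the analyses without untreated replicate 2 or 3 (edgeR FDR = 0.0769 and 0.190) and without NCS replicate 1 or 2 (0.181 and 0.0816). Hist1h2bg was at 0.500, 0.479 and 0.598 CPM without treatment, which is 18 to 23 counts, and at 0.700, 0.919 and 1.06 CPM after NCS (log2 fold change 0.77, SE 0.28, edgeR FDR = 0.0461). It lost the call in 10 of 13 alternatives, with an FDR of 0.0233 to 0.184, and leaving out any wild-type sample but NCS replicate 1 was enough. The alternative that took same-numbered samples of each genotype as pairs left 3 members called and Hist1h2bg at edgeR FDR = 0.0596. The H2A gene Hist1h2ac was not called (0.73, SE 0.29, edgeR FDR = 0.0624), but was without NCS replicate 3 (edgeR FDR = 0.0453) or with at least 10 counts in each sample (0.0388).

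In 3KR MEFs none of the 17 members was called after NCS, beside 30.8% of all tested genes (edgeR). None had an unadjusted p under 0.05, and DESeq2 also called 0. Hist1h1c was at 48.1, 45.5 and 44.7 CPM without treatment and at 42.2, 42.5 and 43.9 CPM after NCS. All 3 treated samples lay below all 3 untreated ones, with a log2 fold change of -0.10 (SE 0.06, edgeR FDR = 0.209). In a fit of the 6 3KR samples alone it was called lower (-0.11, edgeR FDR = 0.0228). Hist1h4i was at 2.08, 2.18 and 1.997 CPM without treatment and at 2.07, 2.44 and 1.90 CPM after NCS, with overlapping groups (log2 fold change 0.03, SE 0.15, edgeR FDR = 0.907). Without a filter on low counts 1 member was called lower, the H2A gene Hist1h2ah, with 4, 3 and 5 counts in the untreated 3KR samples and 0 in the treated ones (edgeR FDR = 0.0406). It was singled out after its values were seen, and only 7.9% of its 50-base stretches are its own.

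**Figure D3:**
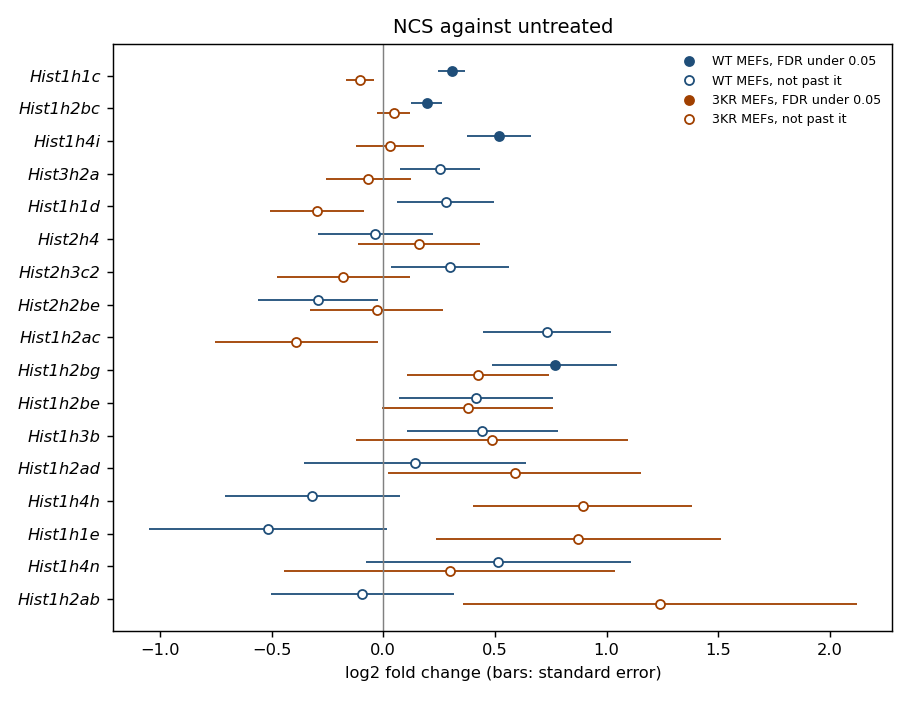
Log2 fold change of NCS against no treatment for the 17 tested members in wild-type (blue) and 3KR MEFs (brown), with standard errors, filled where edgeR FDR was under 0.05. The 4 filled points, Hist1h1c, Hist1h2bc, Hist1h4i and Hist1h2bg, are all from wild-type MEFs and to the right of 0.

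Whether the responses of the genotypes differed was tested as an interaction. Hist1h1c was the only member called, 1 of 17 (5.88%), beside 3.73% of all tested genes, 1.86% called higher and 1.87% called lower (edgeR). Its NCS response was lower in 3KR than in wild-type MEFs by a log2 difference of -0.41 (SE 0.09, edgeR FDR = 0.00611), and it was called in all 18 alternatives with values of -0.50 to -0.35 and FDR of 1.29e-09 to 0.0287. For Hist1h4i the difference was -0.49 (SE 0.21, edgeR FDR = 0.240), for Hist1h2ac -1.12 (SE 0.46, edgeR FDR = 0.217), and for Hist1h2bc -0.15 (SE 0.10, edgeR FDR = 0.507). For these members a difference in response was not shown.

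**Figure D4:**
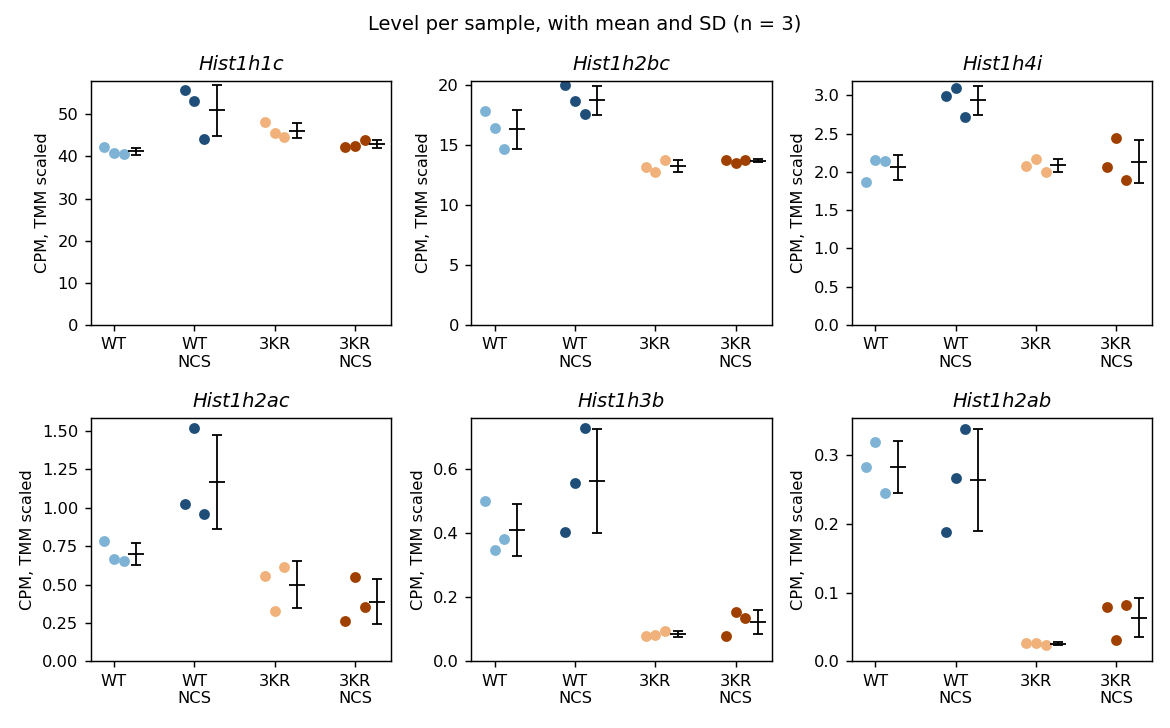
TMM-scaled CPM in each sample (points) with mean and SD of 3 samples (black) for 6 histone genes in wild-type and 3KR MEFs without and with NCS. Hist1h1c rose after NCS in wild-type MEFs and not in 3KR MEFs, and Hist1h3b and Hist1h2ab were lower in all 3KR samples than in all wild-type samples.

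The genotypes were then compared directly. In untreated 3KR MEFs, Hist1h2ab, Hist1h3b, Hist1h2bc and Hist1h4h were lower than in wild-type MEFs, and the H1 genes Hist1h1c and Hist1h1d were higher (edgeR). These 6 of 17 members are 35.3%, beside 45.7% of all tested genes, 23.6% called lower and 22.1% called higher, so members were not called more often than genes in general. After NCS 8 members were lower and none higher, 47.1% beside 46.5% of all tested genes. All 8 were lower, while among all genes 23.6% were called lower and 22.9% higher. The median log2 fold change of the 17 members was -0.37 without treatment and -0.41 after NCS, with 3 and 1 members above 0, and that of all tested genes was 0.00 in both. Hist1h3b, Hist1h2ab and Hist1h4h were tested only because they were high enough in wild-type samples, so their part in these counts and medians is tied to the filter. Over the 11 members that either genotype alone would have admitted, 1 was called lower and 2 higher without treatment and 6 lower and 0 higher after NCS, with medians of -0.27 and -0.41. These comparisons share no samples with each other, but each shares samples with the NCS comparisons above. Without both wild-type replicate 3 libraries 6 of 18 members (33.3%) were called in each, beside 48.8% and 49.7% of all genes.

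The H3 gene Hist1h3b and the H2A gene Hist1h2ab had the largest differences, and both rest on few counts. Hist1h3b (chromosome 13, 23752267 to 23752886) had 23, 13 and 14 counts in untreated wild-type samples and 3, 3 and 4 in untreated 3KR samples. After NCS it had 15, 23 and 28 counts against 3, 5 and 5, so the genotypes did not overlap in either treatment. The log2 fold change was -2.23 without treatment (SE 0.48, edgeR FDR = 0.000455) and -2.19 after NCS (SE 0.43, edgeR FDR = 0.000215). In depth-scaled counts, wild-type was 4.80 times 3KR without treatment (95% exact interval 2.40 to 10.6) and 4.59 times after NCS (2.51 to 9.08), intervals that cover counting error only. Its neighbour Hist1h2ab (chromosome 13, 23751126 to 23751598, same strand) had 13, 12 and 9 counts in untreated wild-type samples and 1 count in each untreated 3KR sample, which is under the floor. After NCS the counts were 7, 11 and 13 against 3, 1 and 3. The ratio of wild-type to 3KR was 10.9 without treatment (95% exact interval 3.42 to 55.3) and 4.01 after NCS (1.73 to 10.8). The fitted edgeR FDR was 0.000184 and 0.00565. In no 3KR sample did Hist1h3b or Hist1h2ab reach the level that the filter on low counts asks for, so the presence of both among the 17 tested members is tied to their higher counts in wild-type samples. Hist1h3b and Hist1h2ab were called in all alternatives in which they were tested, 12 and 11 for each treatment. The alternative with at least 10 counts in every sample left both genes out, so these calls do not lift that limit.

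The promoters of both genes are shown because they are neighbours that differed in the same direction. That of Hist1h2ac is added, which starts near Hist1h2bc on the other strand and is transcribed away from it. The windows run from 250 bases before to 50 bases after the annotated start (RefSeq, GRCm38.p6), and capitals mark the octamer ATTTGCAT, CCAAT (both on either strand) and TATAAA (on the strand shown).
Hist1h2ab, chr13:23750838-23751137, strand +: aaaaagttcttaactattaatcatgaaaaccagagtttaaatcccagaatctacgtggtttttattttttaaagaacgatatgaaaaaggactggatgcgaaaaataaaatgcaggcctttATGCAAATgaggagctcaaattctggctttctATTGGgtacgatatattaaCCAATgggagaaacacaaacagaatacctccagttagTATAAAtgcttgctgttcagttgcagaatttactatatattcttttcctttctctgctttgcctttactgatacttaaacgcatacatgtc
Hist1h3b, chr13:23752095-23752394, strand +: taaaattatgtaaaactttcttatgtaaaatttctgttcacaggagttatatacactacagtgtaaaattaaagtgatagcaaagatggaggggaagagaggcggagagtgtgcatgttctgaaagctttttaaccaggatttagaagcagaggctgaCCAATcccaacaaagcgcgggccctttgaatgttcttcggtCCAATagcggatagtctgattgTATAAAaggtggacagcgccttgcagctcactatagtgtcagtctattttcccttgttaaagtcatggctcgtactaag
Hist1h2ac, chr13:23683910-23684209, strand -: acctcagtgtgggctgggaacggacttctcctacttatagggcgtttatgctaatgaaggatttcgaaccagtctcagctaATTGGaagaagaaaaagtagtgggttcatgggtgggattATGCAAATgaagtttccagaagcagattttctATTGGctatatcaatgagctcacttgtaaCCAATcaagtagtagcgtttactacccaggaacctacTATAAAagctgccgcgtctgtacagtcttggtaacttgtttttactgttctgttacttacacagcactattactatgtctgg
Hist1h2ab and Hist1h2ac hold all 3 motifs, and Hist1h3b holds CCAAT and TATAAA. Of 63 promoters found for 62 of the 67 members, 22.2% hold the octamer, beside 1.74% of the 32851 promoters of all genes. The octamer was found in 38.9% of the H2A promoters and 41.2% of the H2B promoters and in 0 of those of H1, H3 and H4 genes. CCAAT was found in 85.7% (37.4% of all), TATAAA in 47.6% (8.32% of all), and the E2F-type motif TTTCGCGC or TTTGGCGC on either strand in 14.3% (0.813% of all). None of the 3 promoters shown holds this E2F-type motif. These matches are descriptions of letters and not binding sites.

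Hist1h2bc, which encodes an H2B, was at 17.9, 16.4 and 14.6 CPM in untreated wild-type samples and at 13.1, 12.8 and 13.7 CPM in untreated 3KR samples. After NCS it was at 19.97, 18.7 and 17.6 against 13.7, 13.5 and 13.8 CPM, and in both treatments all 3KR samples lay below all wild-type samples. The log2 fold change was -0.31 without treatment (SE 0.07, edgeR FDR = 0.00114) and -0.45 after NCS (SE 0.07, edgeR FDR = 1.31e-05), and it was called in all 13 alternatives of each. Hist1h2ac, the H2A gene whose start lies 251 bases from that of Hist1h2bc on the other strand, had 36, 25 and 24 counts in untreated wild-type and 21, 12 and 26 in untreated 3KR samples, with overlapping groups (log2 fold change -0.48, SE 0.32, edgeR FDR = 0.241). After NCS it had 38, 63 and 37 counts against 10, 18 and 13, without overlap (-1.61, SE 0.32, edgeR FDR = 0.000259, called in all 13 alternatives). Hist1h2ac overlaps the annotated gene Gm24991 on the same strand, and reads of the 2 genes could not be separated here. Per kilobase of annotated exon, Hist1h2bc was at 13.4 CPM per kb beside 0.278 for Hist1h2ac.

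The H1 genes Hist1h1c and Hist1h1d were higher without treatment, and Hist1h1e was not called (log2 fold change -1.31, SE 0.59, edgeR FDR = 0.0770). Hist1h1c was at 48.1, 45.5 and 44.7 CPM in untreated 3KR samples, above all 3 untreated wild-type samples (log2 fold change 0.16, SE 0.06, edgeR FDR = 0.0325). It lost the call in 4 of 13 alternatives, which left out untreated wild-type replicate 2 or 3 or untreated 3KR replicate 1 or 2 (edgeR FDR = 0.0756, 0.0520, 0.141 and 0.0550). After NCS it was lower in 3KR samples, at 42.2, 42.5 and 43.9 CPM against 55.7, 53.2 and 44.1 CPM (-0.25, SE 0.06, edgeR FDR = 0.00150, called in all 13 alternatives). Hist1h1d was at 1.69, 1.66 and 1.40 CPM in untreated 3KR and 0.914, 1.41 and 0.897 CPM in untreated wild-type samples (0.56, SE 0.21, edgeR FDR = 0.0345), and it lost the call in 6 of 13 alternatives. These were DESeq2, leaving out replicate 1 or 3 of wild-type or 1 or 2 of 3KR MEFs, and leaving out both wild-type replicate 3 libraries (FDR of 0.0793 to 0.144). Hist1h1e was called lower without them (-1.65, edgeR FDR = 0.0143). With all 12 samples Hist1h1e passed the filter on low counts only through wild-type samples. A call of lower in 3KR MEFs is therefore tied to its wild-type level. Its counts in the untreated wild-type samples were 26, 11 and, in replicate 3, 5. Hist1h1e overlaps Hist1h2be and the annotated gene Gm11398 on the same strand, and reads of these genes could not be separated here.

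Of the H4 genes, Hist1h4h had 13, 17 and 11 counts in untreated wild-type samples and 4, 6 and 5 in untreated 3KR samples (log2 fold change -1.39, SE 0.45, edgeR FDR = 0.0145), a call lost in 5 of 12 alternatives, among them those without wild-type replicate 2 (edgeR FDR = 0.0805) and without 3KR replicate 1 or 3 (0.0571 and 0.0510). It reached the level that the filter asks for in 4 of the wild-type and 1 of the 3KR samples, so that this call, too, concerns a gene tested because of its wild-type level. After NCS its groups overlapped, with 12, 10 and 10 against 12, 6 and 8 counts (-0.18, SE 0.43, edgeR FDR = 0.764). Hist1h4i was lower in NCS-treated 3KR than in NCS-treated wild-type samples, at 2.07, 2.44 and 1.90 against 2.99, 3.09 and 2.72 CPM (-0.46, SE 0.15, edgeR FDR = 0.0116), and without 3KR replicate 3 its edgeR FDR was 0.0639. The H3 gene Hist2h3c2 and Hist1h2bg were also called lower after NCS, by 0.72 and 0.70 on the log2 scale (edgeR FDR = 0.0396 and 0.0487). These calls were lost in 7 and 9 of 13 alternatives, for both genes among them without both wild-type replicate 3 libraries (0.138 and 0.225). Leaving out wild-type replicate 3 or 3KR replicate 1 or 3 was enough to lose either call, as was wild-type replicate 1 for Hist2h3c2 and 2 for Hist1h2bg. No call was made in any comparison for Hist2h4, Hist3h2a, Hist2h2be, Hist1h2be, Hist1h2ad, Hist1h1e or Hist1h4n. Without untreated 3KR replicate 3, Hist2h2be was called lower in untreated 3KR MEFs (-0.84, edgeR FDR = 0.0373). Reads on Hist3h2a may include some from Trim17, which overlaps it on the same strand and was at 0.381 to 0.925 CPM, beside a mean of 1.64 CPM for Hist3h2a.

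**Figure D5:**
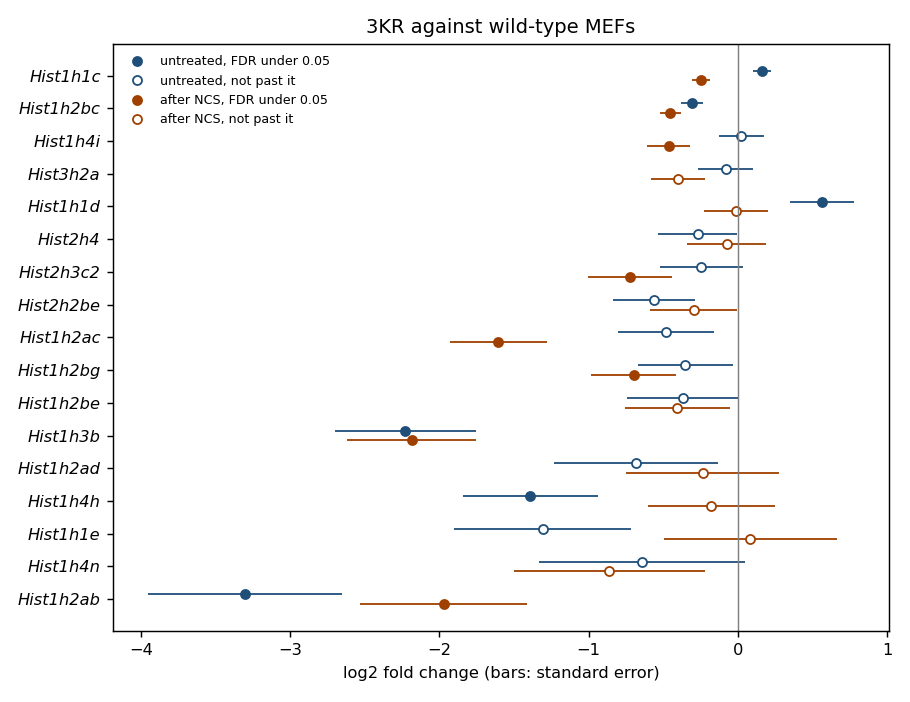
Difference of 3KR from wild-type MEFs on the log2 scale for the 17 tested members without treatment (blue) and after NCS (brown), with standard errors, filled where edgeR FDR was under 0.05. After NCS the 8 filled points all lie to the left of 0, and Hist1h3b and Hist1h2ab lie far to the left in both treatments.

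Summed over all members, the level was 72.2, 71.3 and 67.1 CPM in untreated wild-type samples and 90.1, 87.5 and 77.4 CPM after NCS. In 3KR MEFs it was 72.5, 68.8 and 69.4 CPM without treatment and 67.1, 67.8 and 67.9 CPM after NCS. The untreated genotypes thus overlapped, while the NCS-treated wild-type samples lay above all others. H1 genes, which here means mainly Hist1h1c, made up 41.9 to 44.0 CPM of the untreated wild-type sums. Without Hist1h1c and Hist1h2bc the sums were 12.2, 13.9 and 11.9 CPM in untreated and 14.4, 15.6 and 15.8 CPM in NCS-treated wild-type samples, and 11.3, 10.6 and 10.9 CPM and 11.2, 11.8 and 10.2 CPM in the 3KR samples. The sums of H2A, H2B, H3 and H4 genes were each lower in every 3KR sample than in every wild-type sample of the same treatment. The H1 sums of the 3KR samples lay above those of all wild-type samples without treatment (46.6 to 50.6 against 41.9 to 44.0 CPM) and below them after NCS (44.0 to 45.6 against 46.2 to 57.1 CPM). H3 ranged from 1.31 to 1.72 CPM in untreated wild-type and from 0.843 to 0.975 CPM in untreated 3KR MEFs. H2B ranged from 17.2 to 19.9 CPM and from 14.1 to 15.6 CPM in the same groups.

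Genes that act on histone mRNAs and histones moved in both directions (edgeR, adjusted over all genes tested). Of all tested genes, 14.3% were called higher and 12.4% lower after NCS in wild-type MEFs, and 15.8% and 15% in 3KR MEFs. Between genotypes, 22.1% were higher and 23.6% lower in untreated 3KR MEFs, and 22.9% and 23.6% after NCS. These shares stand beside the counts of all lists below. Of 21 genes for the processing or decay of histone mRNA, 19 were tested. In wild-type MEFs 1 rose and 5 fell after NCS, and in 3KR MEFs 2 rose and 2 fell. Lsm11, a subunit of the U7 snRNP that cleaves histone pre-mRNA, rose in both (0.26 and 0.26 on the log2 scale, FDR = 0.00192 and 0.00199), while Ncbp1, a cap-binding protein, fell in both (by 0.17 and 0.12, FDR = 0.00658 and 0.0477). Untreated 3KR MEFs had 3 of these genes higher and 3 lower than wild-type MEFs, and NCS-treated 3KR MEFs had 8 and 2. Eri1, an exonuclease that trims the histone stem-loop during decay, was higher in 3KR MEFs by 0.33 without treatment (FDR = 6.48e-07) and by 0.25 after NCS (FDR = 3.51e-05). Casp8ap2, known as FLASH and part of the cleavage machinery, was higher by 0.33 and 0.26 (FDR = 5.47e-06 and 0.00011). Slbp, the stem-loop binding protein itself, was at 39.1 to 48.5 CPM in the 12 samples and was called in no comparison.

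Of 10 genes for histone gene transcription, 3 rose and 1 fell after NCS in wild-type MEFs, and 5 rose and 1 fell in 3KR MEFs. Hinfp, an activator of H4 genes, rose by 0.27 and 0.30, and Coil, which encodes the Cajal body protein coilin, fell by 0.27 and 0.24 (FDR = 0.00232, 0.000789, 0.0142 and 0.0250). Pou2f1, which encodes the octamer-binding factor Oct-1, was lower in 3KR than in wild-type MEFs by 0.67 without treatment and 0.54 after NCS (FDR = 1.91e-07 and 3.46e-06). E2f1 itself was at 27.4 to 34.0 CPM in the 12 samples and was called in no comparison. Of 20 histone chaperone and assembly genes, 9 were higher and 3 lower in untreated 3KR MEFs, and 10 and 3 after NCS. Among all tested genes 22.1% were higher and 23.6% lower without treatment, and 22.9% and 23.6% after NCS. Chaf1b, a subunit of the assembly factor CAF-1, was higher by 0.49 and 0.51 on the log2 scale. NCS moved 4 of the 20 in wild-type and 6 in 3KR MEFs, with equal numbers up and down. Of all tested genes, 26.7% and 30.8% were called. Asf1b fell in both genotypes (by 0.38 and 0.27).

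The replication-independent histone variant genes, whose mRNAs are polyadenylated as a rule, served as a comparison. Among these genes H2afx holds a match to the histone stem-loop, so the contrast is less clear for it. Of 11 listed, 10 were tested and their summed level was 735.5 to 863.5 CPM, against 67.1 to 90.1 CPM for all members together. In untreated 3KR MEFs 6 were higher and 1 lower, and after NCS 5 and 1. After NCS 2 rose and 2 fell in wild-type MEFs and 2 rose and 3 fell in 3KR MEFs. Cenpa, the centromeric H3, fell by 0.54 in wild-type and 0.33 in 3KR MEFs, H2afx fell by 0.38 and 0.34, and H2afj rose by 0.39 and 0.42. Genes of DNA replication were mostly higher in 3KR MEFs, 20 of 22 without treatment and 22 of 22 after NCS (median log2 fold change 0.34 and 0.44), with a summed level of 1039 to 1059 CPM in untreated wild-type and 1273 to 1294 CPM in untreated 3KR MEFs. The medians of the 17 histone genes in the same comparisons were -0.37 and -0.41, and 6 of the 17 were tested only through wild-type samples. Over the 11 members that either genotype alone would have admitted, the medians were -0.27 and -0.41. Markers of other cells also differed between the genotypes. All 13 macrophage markers were detected and higher in untreated 3KR MEFs (summed level 249.8 to 252.9 against 125.7 to 144.5 CPM), and 7 of 10 Schwann and neural crest markers, none of them at 0, were lower (52.1 to 53.97 against 233.1 to 240.5 CPM). The part of cell composition or of S phase content in the histone results was not tested, and in bulk samples fewer cells of a type and less RNA per cell cannot be told apart.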

How the data were processed

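Poly(A)-selected, stranded mRNA libraries of 12 MEF samples were sequenced on an Illumina instrument. The deposited values are raw counts of reads per Ensembl gene, 1 file for each sample and not normalized, which the authors made per the labels with TopHat, HTSeq and DESeq on mm9, with no versions given. Whether counting used the strand is not given in the sources used here. Coordinates are from GENCODE M21 (GRCm38), a build other than mm9, and symbols were matched by identifier.

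In R 4.3.3, edgeR 4.0.16 served for the filter (filterByExpr), TMM scaling and the quasi-likelihood test, with 1 coefficient per group, all 12 samples, two-sided tests, and Benjamini-Hochberg adjustment over 15327 genes (threshold 0.05). The common biological coefficient of variation was 3.95%. The Wald test of DESeq2 1.42.0 was an alternative, as were DESeq2 size factors, no filter, 10 or more counts in each sample, a fit of the 6 samples compared alone, a replicate block, and each sample left out. Leaving out both wild-type replicate 3 libraries, and sums without Hist1h1c and Hist1h2bc, were added after seeing the data. Both tools were first tested on simulated data. Intervals of ratios are exact (Clopper-Pearson) from scipy 1.17.1. In wild-type MEFs, same-numbered untreated and NCS samples deviated together (correlations 0.267, 0.234 and 0.468 over 9602 genes). In 3KR MEFs (0.00102, 0.0502 and 0.00241) and between genotypes same-numbered samples did not. The main fit used no pairs. For the NCS comparisons and the interaction, the replicate block took same-numbered samples of each genotype as pairs. For the comparisons of genotypes it entered the replicate number as a factor.

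The members and gene lists were chosen with earlier results of these data known. Named members are the 12 with the highest mean CPM, all called ones and the testis histones, and from the other lists up to 3 genes with the lowest p per comparison. Slbp and E2f1 are named besides. Other members, given as examples at a limit or for their counts (such as Hist1h1b, Hist1h2ah, Hist1h4a and Hist2h3c1), fall outside this rule and were chosen after their values were seen. No sum over members was tested.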

Additional observations from a re-analysis of the deposited data

Results flagged for a closer look

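The response of Hist1h1c to NCS differed between the genotypes by the interaction test. As a log2 fold change it was 0.31 in wild-type and -0.10 in 3KR MEFs, a difference of -0.41 (standard error 0.09, edgeR FDR = 0.00611), with 3 of 3 treated wild-type samples above and 3 of 3 treated 3KR samples below their untreated samples. Without both wild-type replicate 3 libraries the difference was -0.49 (edgeR FDR = 1.29e-09). The cause was not tested.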

How the results depend on the processing

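No called member changed direction in any alternative. The number of members called after NCS in wild-type MEFs was 4 (23.5%, beside 26.7% of all genes), and it was 2 with the DESeq2 Wald test (18.2%, 27.3%), 2 with only the 6 samples compared (11.8%, 20.9%), 2 without both wild-type replicate 3 libraries (11.1%, 32.7%) and 2 to 4 with 1 sample left out (2 without untreated replicate 1, 2 or 3 or NCS replicate 2). In 3KR MEFs it was 0, and 1 without the filter (2.08%, beside 19.2% of all genes) and 1 with only the 6 samples (9.09%, 42.0%). Without treatment 6 members differed between genotypes, 3 of 11 with at least 10 counts in every sample (27.3%, beside 49.2% of all genes) and 3 to 6 with 1 sample left out (3 without 3KR replicate 1). After NCS 8 differed, 5 with only the 6 samples (33.3%, beside 48.0%) and 5 to 8 with 1 sample left out (5 without 3KR replicate 3). The main counts of 6 and 8 include Hist1h2ab and Hist1h3b, and the 6 also Hist1h4h, which were tested only through wild-type samples. Over the 11 members that either genotype alone would have admitted, 1 was lower and 2 higher without treatment. After NCS 6 of these 11 were lower and 0 higher. The interaction called 1 in all 18 alternatives. With the replicate block, the counts were 3, 0, 6, 7 and 1 in the same order, and the calls lost were those of Hist1h2bg after NCS in wild-type MEFs and between genotypes after NCS. Same-numbered samples deviated together in wild-type MEFs only, which replicate 3 alone can produce, so pairing was not shown.

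Class sums, which were not tested, moved more. An alternative summed only members with at least 80% of stretches of their own (no H3 gene qualified). For H2A this was Hist1h2ac alone, for H2B Hist2h2be and Hist1h2be, and for H4 Hist2h4, Hist1h4d and Hist1h4c. Hist1h2bc was left out, and the total was mainly Hist1h1c, so these values describe few genes and not whole classes. The log2 ratios for NCS in wild-type MEFs were then 0.74 for H2A (0.29 over all members), -0.041 for H2B (0.20) and 0.013 for H4 (0.31). For NCS in 3KR MEFs they were -0.36 for H2A (-0.035), 0.14 for H2B (0.07) and -0.11 for the total (-0.055), and scaling by library total gave a total of -0.10. Between untreated genotypes they were -0.49 for H2A (-0.26), -0.52 for H2B (-0.33) and 0.14 for the total (0.001), and after NCS -1.59 for H2A (-0.58), -0.34 for H2B (-0.46) and -0.10 for H4 (-0.37). Without Hist1h1c and Hist1h2bc the total was 0.019 for NCS in 3KR MEFs, -0.22 between untreated genotypes and -0.46 after NCS (-0.33). The causes of these shifts were not tested, beyond the fewer genes summed. Depth limits the rest, since members at 1 to 3 counts could not show a difference at this depth.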
